A study of Homo sapiens with 12 samples.

Results

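The epithelial junction and polarity genes described here are 43 genes chosen by name: components of adherens junctions, tight junctions and desmosomes, proteins of cell polarity and of polarised trafficking, and factors that set the expression or splicing of such genes. Of these, 42 were listed under the symbol used in the rule and PATJ under its older symbol INADL, among 23284 genes listed. A gene was tested if its FPKM, its fragment number scaled to transcript length and to library size, was at least 1 in at least 2 libraries, and 38 of the 43 members were among the 12946 genes that met this. The 5 that did not were CLDN2, CLDN18, DSC3, DSG3 and PKP1.

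The libraries were made from PANC-1, a human pancreatic cancer cell line. The cells had been infected with a retrovirus that carries the fluorescent protein ZsGreen fused to the degron of ornithine decarboxylase (ODC), so that cells with low proteasome activity are fluorescent. Degron (−) was the infected line as a whole, in which few cells were fluorescent, and degron (++) was the brightest part of a line obtained from it by repeated sorting and culture, used in the study as a model of cancer stem-like cells. Both populations were grown in G418, and the question was which genes go with the radioresistance of degron (++) cells. Each population had 2 libraries at 0 Gy 48 h, 2 at 4 Gy 30 h and 2 at 4 Gy 48 h, 12 libraries in 6 groups, with gamma rays from cesium as the radiation. The starting point of the hours is not stated, and the labels name no culture, sort or batch for a replicate. The libraries taken as degron (−) are called ZsGreen-negative in their titles and d+ in their descriptions. The sources used here do not say whether degron (++) came from more than 1 series of sorts.

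The keratins of simple epithelium were high in both populations, with KRT8 at 2488 to 2981 FPKM in degron (++) and at 1732 to 2118 FPKM in degron (−). KRT18 and KRT19 were likewise high in both, but KRT7 was at 1142 to 1437 FPKM against 133 to 273 FPKM (log2 fold change at 0 Gy 48 h 2.66, adjusted p = 1.36e-08), and the duct factor SOX9 was lower in degron (++) (-0.97, adjusted p = 4.49e-08). Of the other lists, 15 of the 18 markers of blood cells, endothelium, fibroblasts and acinar or endocrine cells stayed under 1 FPKM in every library, with CD3E, DCN, COL1A2 and GCG at 0 in all. The exceptions were CD68, COL1A1 and LUM. CD68 of the blood cell list and COL1A1 of the fibroblast list were higher in degron (−), at 124 to 165 and 36.5 to 52.3 FPKM against 2.91 to 4.62 and 0.531 to 0.826 FPKM, whereas LUM was higher in degron (++), at 13.8 to 24.7 against 0.290 to 1.61 FPKM. Their part in the results was not tested. PANC-1 is known as a line that has lost CDKN2A, a cell cycle inhibitor gene on 9p21, by homozygous deletion. The libraries labelled degron (++) held CDKN2A at 100.4 to 112 FPKM and those labelled degron (−) at 11.04 to 21.1 FPKM. VIM, the intermediate filament gene of mesenchymal cells, was at 13.2 to 19.2 FPKM in degron (++) and at 2376 to 2711 FPKM in degron (−). The files hold no genotype, and whether the libraries of both labels come from cells of the same line, alone or mixed, was not tested. This bears on every comparison of the populations given here.

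Epithelial cells are held together by cadherins and catenins in adherens junctions, sealed near the apical side by claudins, occludin and their scaffolds in tight junctions, and tied to keratin filaments by desmosomes. The Crumbs, PAR and Scribble complexes mark the apical and basolateral sides, and the trafficking proteins RAB25 and AP-1B deliver membrane proteins to them. Grainyhead-like (GRHL) and OVO-like (OVOL) factors and the splicing regulators ESRP1 and ESRP2 are known to maintain this programme, whereas repressors of the ZEB and SNAIL families bind the E-box letters CAGGTG in promoters such as that of E-cadherin and turn it down.

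Promoters are shown because these letters are where those repressors are known to bind. RefSeq promoters of the GRCh38.p14 build were at hand for 26 of the 43 members, with 36 starts among them. In the 250 bases before a start, CAGGTG or its reverse complement CACCTG stood at least once in 13 of the 26 members (50%), against 20.6% of all 27305 genes with a promoter in the table, and in 2 or more copies before a start in 7 members (26.9%), against 3.08% of all genes. Counted by start rather than by gene, the letters stood before 38.9% of the 36 member starts and 17.5% of all 35116 starts. CRB3 had 5 copies, with their leading bases at -228, -208, -147, -89 and -60 from the start, and AP1M2 had 3. A match is a description of the letters and not a bound site. The shares of all genes and starts cover every gene with a promoter, tested or not. They were not matched to the members for expression or base composition. The 17 members without an entry were CDH1, CDH3, CTNND1, EPCAM, EVPL, F11R, GRHL2, ESRP1, ESRP2, LLGL2, MARVELD3, OVOL1, OVOL2, PARD6B, PKP2, PKP3 and PPL.

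The sequences run 5′ to 3′ on the strand of the gene, with CAGGTG or CACCTG in capitals, and leave out what an exon of GENCODE release 29 covers. AP1M2 and RAB25 are the trafficking members, and DSP and DSG2 are desmosome members whose difference between the times depended on the population. TMEM125, among the members with the largest differences between the populations, has no copy. AP1M2 is read from chr19:10587316-10587562 on the minus strand, RAB25 from chr1:156060910-156061159, DSP from chr6:7541421-7541574, DSG2 from chr18:31497927-31498042 and TMEM125 from chr1:43269733-43269982, the last 4 on the plus strand.
AP1M2: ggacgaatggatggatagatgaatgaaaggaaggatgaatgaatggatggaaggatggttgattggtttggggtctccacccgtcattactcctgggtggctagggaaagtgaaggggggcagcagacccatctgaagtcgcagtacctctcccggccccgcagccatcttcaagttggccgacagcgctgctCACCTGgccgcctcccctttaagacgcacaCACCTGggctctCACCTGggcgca
RAB25: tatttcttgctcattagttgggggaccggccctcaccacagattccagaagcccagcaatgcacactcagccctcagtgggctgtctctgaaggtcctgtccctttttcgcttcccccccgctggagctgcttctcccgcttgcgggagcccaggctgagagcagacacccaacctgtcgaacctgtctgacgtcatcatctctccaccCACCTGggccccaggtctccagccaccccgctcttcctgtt
DSP: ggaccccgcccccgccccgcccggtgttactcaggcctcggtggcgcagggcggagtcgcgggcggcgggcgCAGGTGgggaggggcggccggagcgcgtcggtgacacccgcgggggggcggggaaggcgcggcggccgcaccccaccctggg
DSG2: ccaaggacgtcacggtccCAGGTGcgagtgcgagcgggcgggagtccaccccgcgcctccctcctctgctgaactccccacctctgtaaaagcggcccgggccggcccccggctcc
TMEM125: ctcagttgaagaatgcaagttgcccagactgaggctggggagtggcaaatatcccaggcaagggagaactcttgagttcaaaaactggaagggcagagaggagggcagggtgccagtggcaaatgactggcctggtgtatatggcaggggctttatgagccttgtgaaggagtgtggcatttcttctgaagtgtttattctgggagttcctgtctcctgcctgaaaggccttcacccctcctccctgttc
In AP1M2 the 3 copies lie within the last 57 bases before the start, in RAB25 the copy begins at -41, and the copies shown for DSP and DSG2 begin at -178 and -232. DSP and DSG2 each have another copy nearer the start, at -85 and -116, in the part not shown.

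Nearly the whole list was higher in degron (++) cells, in every condition. At 0 Gy 48 h, 37 of the 38 tested members were higher in degron (++) and 0 were lower, where 37.6% of all genes tested were higher and 40.2% lower (limma, adjusted p under 0.05). At 4 Gy 30 h, 37 were higher and 1 was lower (all genes, 38.3% and 40.8%), and at 4 Gy 48 h 37 were higher and 0 lower (all genes, 37.1% and 39.6%). The median log2 fold change of the tested members was 1.80, 2.05 and 1.44 in that order, against -0.02, -0.02 and -0.01 over all genes. The members were the same 37 each time, and for each of them every degron (++) library lay above every degron (−) library, which 34.1% of all genes showed. In bulk RNA, fewer cells of a type and less RNA per cell cannot be told apart.

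Some limits belong to these counts. The members were chosen with earlier results of these data known, so their shared direction is no independent evidence. Junction and polarity genes outside the list were split in direction, as given below. DSC2, TJP3 and TMEM125 passed the filter only through degron (++) libraries and so had to differ, and without them 34 of 35 members were higher at 0 Gy 48 h. The gene MIR622 alone took up 22.5% to 30% of each library’s summed FPKM. When each library was rescaled to the same sum (TPM), the median over all genes became -0.22, -0.27 and -0.25 in the 3 conditions. The share of higher genes among those called fell from 48.3%, 48.5% and 48.3% to 35.9%, 33.3% and 31.7%. Then 36, 34 and 33 members were higher.

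**Figure D1:**
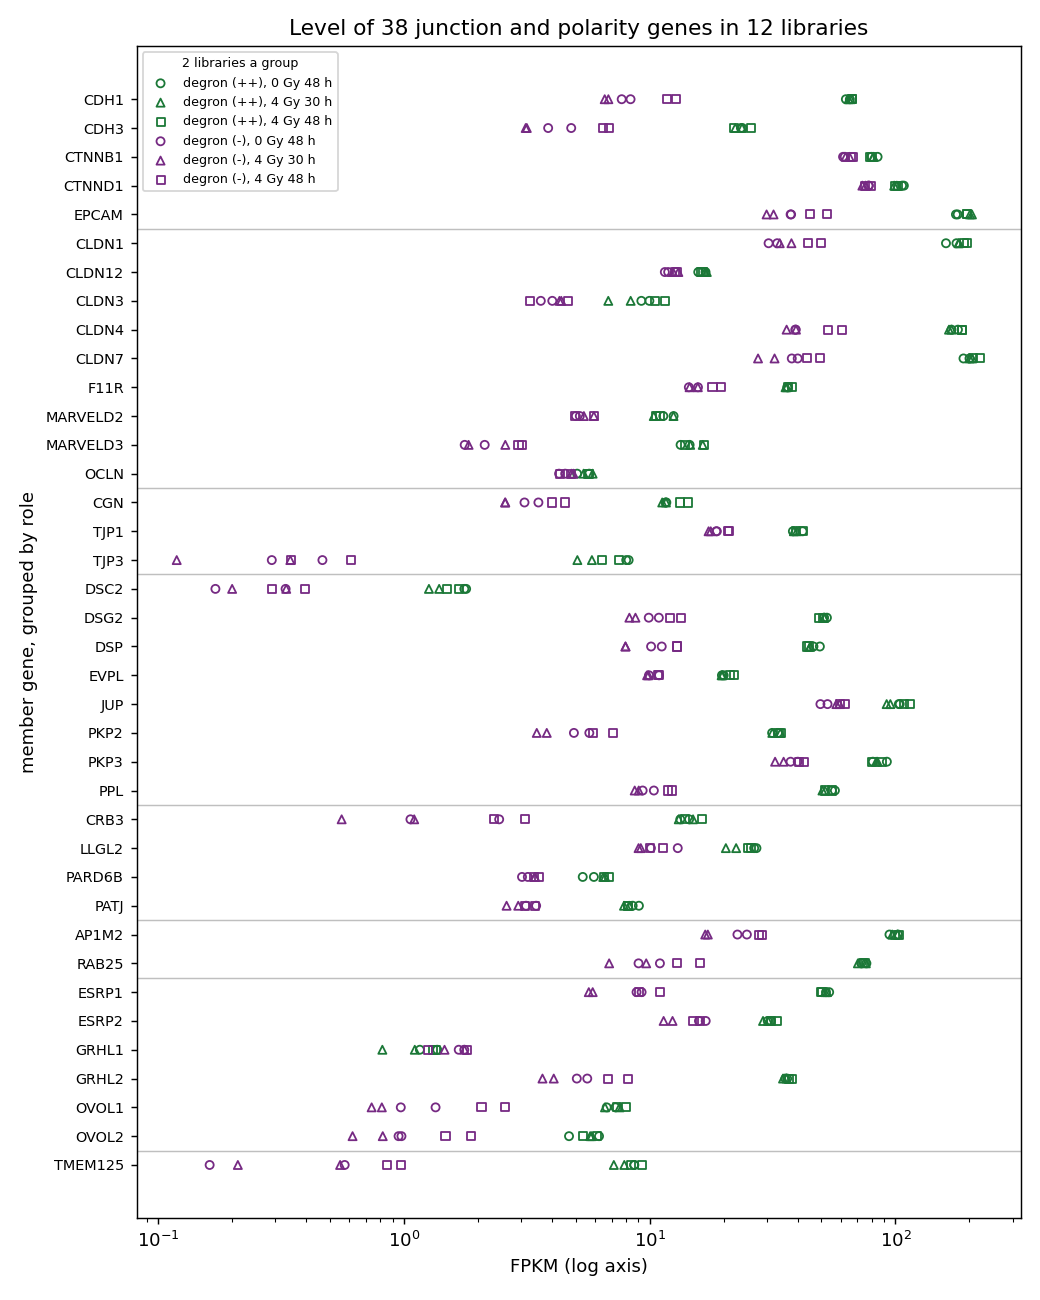
FPKM of the 38 tested members (x axis, log scale) in each library, with genes on the y axis grouped by role, green for degron (++) and purple for degron (−), and circles, triangles and squares for 0 Gy 48 h, 4 Gy 30 h and 4 Gy 48 h. The green and purple points do not overlap for 37 members, GRHL1 being the exception.

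Among the adherens junction genes, CDH1, which encodes E-cadherin, had the largest difference on log2(FPKM + 1) at 0 Gy 48 h, close to that of TMEM125 (2.85 and 2.83), whereas by the plain ratio of FPKM TMEM125 (23.5) and TJP3 (21.5) were above CDH1 (7.98). Its FPKM was 65.2 and 62.8 in the degron (++) libraries at 0 Gy 48 h, 65.7 and 64.5 at 4 Gy 30 h, and 66.6 and 66.6 at 4 Gy 48 h. In degron (−) it was 8.36 and 7.69, 6.56 and 6.79, and 11.7 and 12.8 in the same order. The degron (++) libraries were alike and all were high, while the degron (−) libraries were low and highest at 4 Gy 48 h. The log2 fold change was 2.85 ± 0.052 (SE, adjusted p = 3.31e-10), 3.11 (adjusted p = 1.75e-10) and 2.35 (adjusted p = 1.15e-09) in the 3 conditions.

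EPCAM is an epithelial adhesion molecule used as a marker of carcinoma cells, and is grouped here with the adherens members. It stood at 179 and 176, 201 and 205, and 195 and 196 FPKM in degron (++). In degron (−) it stood at 37.4 and 37.6, 29.9 and 31.9, and 44.8 and 52.8 FPKM. The populations did not overlap, and the log2 fold change at 0 Gy 48 h was 2.21 ± 0.066 (SE, adjusted p = 6.14e-09). CDH3, the P-cadherin gene, was at 23.8 and 23.5, 23.7 and 22.3, and 22.1 and 25.8 FPKM in degron (++). In degron (−) it was at 4.79 and 3.86, 3.16 and 3.13, and 6.46 and 6.85 FPKM, again low, and lowest at 30 h. The log2 fold change at 0 Gy 48 h was 2.22 ± 0.094 (SE, adjusted p = 4.65e-08).

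The catenins differed far less than the cadherins they bind. CTNNB1, which encodes β-catenin, was at 84.6 and 79.7, 81.2 and 81.3, and 80.5 and 78.7 FPKM in degron (++) and at 62.2 and 61.2, 62.7 and 65.0, and 65.7 and 67.3 FPKM in degron (−). Every degron (++) library was above every degron (−) library, but the log2 fold change was 0.41 ± 0.037 (SE, adjusted p = 7.67e-06) at 0 Gy 48 h, 0.34 (adjusted p = 2.35e-05) at 4 Gy 30 h and 0.26 (adjusted p = 0.000197) at 4 Gy 48 h. After TPM rescaling the call at 4 Gy 30 h was lost (0.062, adjusted p = 0.373) and the value at 4 Gy 48 h was -0.0056 (adjusted p = 0.941). CTNND1, the p120-catenin gene that stabilises cadherins at the membrane, was at 98.8 to 108 FPKM in degron (++) and 73.3 to 79.6 FPKM in degron (−), and TPM rescaling took away its call at 4 Gy 48 h (0.12, adjusted p = 0.0778). The ratio of CTNNB1 to CDH1 was therefore 1.18 to 1.30 in the degron (++) libraries and 5.26 to 9.58 in the degron (−) libraries.

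Among the membrane proteins of tight junctions, CLDN1, CLDN4, CLDN7 and MARVELD3 had log2 fold changes above 2 at 0 Gy 48 h, CLDN3, F11R and MARVELD2 lay between 1 and 2, and CLDN12 and OCLN lay under 0.5. CLDN1, a barrier-forming claudin, had the largest value of this role on log2(FPKM + 1) at 0 Gy 48 h, although CLDN7 was above it at 4 Gy 30 h (2.73 against 2.31) and 4 Gy 48 h (2.18 against 2.02), and by the plain ratio of FPKM MARVELD3 was above it in every condition (7.15 against 5.32 at 0 Gy 48 h). It was at 177 and 160, 180 and 181, and 189 and 195 FPKM in degron (++) and at 33.0 and 30.5, 33.8 and 37.7, and 44.1 and 49.7 FPKM in degron (−), a log2 fold change of 2.37 ± 0.075 (SE, adjusted p = 8.51e-09) at 0 Gy 48 h. CLDN4, a barrier-forming claudin often high in pancreatic cancer, was at 169 and 180, 169 and 165, and 187 and 187 FPKM in degron (++). In degron (−) it was at 39.3 and 39.1, 36.1 and 39.4, and 53.2 and 60.5 FPKM, so the populations were far apart, and the log2 fold change at 0 Gy 48 h was 2.12 (adjusted p = 6.07e-09). CLDN7, a claudin known to bind EPCAM, had the highest level of all members in degron (++), 195 FPKM at 0 Gy 48 h, where it was 38.9 FPKM in degron (−). CLDN3 was low, at 6.78 to 11.5 FPKM in degron (++) and 3.26 to 4.67 FPKM in degron (−).

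MARVELD3, a tight junction protein with a MARVEL domain, had a log2 fold change of 2.34 at 0 Gy 48 h, from 13.9 FPKM in degron (++) to 1.95 FPKM in degron (−). Its relatives differed less: MARVELD2, which encodes tricellulin at the corners where cells meet, had a log2 fold change of 1.08, and OCLN, which encodes occludin, one of 0.24 (adjusted p = 0.0137), 0.18 (adjusted p = 0.0443) and 0.25 (adjusted p = 0.00962) in the 3 conditions. OCLN was at 5.07 to 5.86 FPKM in degron (++) and at 4.28 to 4.89 FPKM in degron (−). Its calls rested on single libraries. At 0 Gy 48 h the call was lost without degron (++) replicate 2 (0.17, adjusted p = 0.103) or degron (−) replicate 1 (0.20, adjusted p = 0.0741) of that group, and at 4 Gy 48 h without degron (−) replicate 2 (0.20, adjusted p = 0.0714). At 4 Gy 30 h it was lost when any of 7 libraries was left out (adjusted p = 0.0535 to 0.217). These were degron (++) replicate 2 and both degron (−) replicates at 4 Gy 30 h, both degron (++) replicates at 4 Gy 48 h and both degron (−) replicates at 0 Gy 48 h. TPM rescaling took all 3 calls away and turned the value at 4 Gy 30 h to -0.06 (adjusted p = 0.532). CLDN12 had a log2 fold change of 0.45 (adjusted p = 2.18e-05), with its calls at 4 Gy 30 h (0.12, adjusted p = 0.183) and 4 Gy 48 h (0.08, adjusted p = 0.353) lost under TPM rescaling, and F11R, which encodes the junctional adhesion molecule JAM-A, one of 1.22 (adjusted p = 8.85e-08). CLDN2, a pore-forming claudin, was listed at 0 in all 12 libraries, and CLDN18 was listed at 0 in every degron (++) library and at 0.024 to 0.1 FPKM in degron (−).

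The 3 plaque genes of tight junctions differed to unlike extents. TJP1, the ZO-1 gene, was at 41.9 and 38.2, 38.6 and 39.7, and 42.2 and 39.5 FPKM in degron (++) and at 18.6 and 18.8, 17.7 and 17.4, and 20.9 and 21.02 FPKM in degron (−), so that the populations were well apart and the libraries within each close together. Its log2 fold change at 0 Gy 48 h was 1.06 ± 0.050 (SE, adjusted p = 9.21e-08). TJP3, the ZO-3 gene, was at 8.21 and 8.03, 5.82 and 5.08, and 6.38 and 7.47 FPKM in degron (++), against 0.466 and 0.290, 0.119 and 0.345, and 0.348 and 0.607 FPKM in degron (−). TJP3 was thus low in degron (++) and under 1 FPKM in every degron (−) library, with a log2 fold change on log2(FPKM + 1) of 2.73 ± 0.13 (SE, adjusted p = 1.01e-07), which understates the change of a gene this low. TJP3 and TMEM125 are also in the study's own list of its most upregulated genes, so their direction is no independent evidence. CGN, which encodes the scaffold cingulin, had a log2 fold change of 1.56 (adjusted p = 7.64e-08).

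In desmosomes, the cadherin DSG2, the plakophilin PKP2 and the plakins DSP and PPL had the largest differences on log2(FPKM + 1) at 0 Gy 48 h, whereas by the plain ratio of FPKM the low DSC2 came first (7.09, against 6.11 for PKP2). PKP2 was at 33.2 and 31.5, 31.5 and 34.0, and 34.1 and 33.4 FPKM in degron (++) and at 5.68 and 4.92, 3.81 and 3.47, and 5.85 and 7.06 FPKM in degron (−), a log2 fold change of 2.41 ± 0.089 (SE, adjusted p = 2.15e-08) at 0 Gy 48 h. DSP, the desmoplakin gene that links the plaque to keratins, was at 49.2 and 46.4, 45.0 and 45.0, and 44.3 and 43.7 FPKM in degron (++), and at 11.2 and 10.1, 7.97 and 7.97, and 12.9 and 12.9 FPKM in degron (−). The degron (−) libraries of DSP paired closely within each group and stood in 3 separate levels. The log2 fold change at 0 Gy 48 h was 2.07 (adjusted p = 1.64e-09). DSG2, the desmoglein of simple epithelia, was at 52.6 and 51.2, 51.2 and 51.3, and 50.8 and 49.0 FPKM in degron (++), and at 10.9 and 9.91, 8.75 and 8.27, and 12.1 and 13.5 FPKM in degron (−), a log2 fold change of 2.22 (adjusted p = 3.3e-09). PPL, the periplakin gene, had a log2 fold change of 2.39 (adjusted p = 1.26e-09).

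JUP, which encodes plakoglobin, shared by desmosomes and adherens junctions, was at 103 and 104, 95.3 and 92.1, and 108 and 115 FPKM in degron (++), and at 52.9 and 49.5, 57.5 and 59.2, and 59.4 and 62.4 FPKM in degron (−). Its log2 fold change was 1.004 (adjusted p = 7.98e-08), 0.67 (adjusted p = 9.77e-07) and 0.86 (adjusted p = 2.50e-07). PKP3 (1.14) and EVPL, the envoplakin gene (0.87), differed to a like extent at 0 Gy 48 h, both over levels well above 1 FPKM. DSC2, a desmocollin at 1.26 to 1.79 FPKM in degron (++) and under 0.4 FPKM in degron (−), had a log2 fold change of 1.15, which the added 1 makes small for so low a gene. The members typical of stratified epithelium were barely listed: DSC3 at 0 to 0.012 FPKM in all libraries, DSG3 at 0.154 to 0.315 FPKM in degron (++) and 0.015 to 0.072 FPKM in degron (−), and PKP1 at 0.410 to 0.718 FPKM and 0.066 to 0.198 FPKM. Summed over the 11 desmosome members, the level was 378 to 409 FPKM in degron (++) and 129 to 162 FPKM in degron (−), and over the 7 claudins it was 562 to 631 FPKM and 115 to 177 FPKM.

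All 4 polarity members were higher in degron (++). CRB3, the epithelial Crumbs gene of the apical membrane, was at 13.3 and 14.5, 13.1 and 15.0, and 13.9 and 16.3 FPKM in degron (++), and at 2.44 and 1.06, 0.558 and 1.10, and 3.10 and 2.32 FPKM in degron (−). The degron (−) libraries of CRB3 varied more among themselves than those of most members, and its log2 fold change at 0 Gy 48 h was 2.48 ± 0.23 (SE, adjusted p = 9.55e-06). PATJ, a scaffold of the Crumbs complex, had a log2 fold change of 1.19 (adjusted p = 3.68e-07), LLGL2, a basolateral protein that opposes the apical complexes, 1.16 (adjusted p = 5.64e-06), and PARD6B, of the PAR complex, 0.69 (adjusted p = 7.58e-06).

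Both trafficking genes were higher in degron (++), RAB25 by more than AP1M2. RAB25, of apical recycling, was at 72.5 and 76.2, 75.8 and 70.3, and 73.7 and 75.3 FPKM in degron (++) and at 9.01 and 11.004, 6.84 and 9.68, and 13.0 and 16.0 FPKM in degron (−), a log2 fold change of 2.78 ± 0.15 (SE, adjusted p = 2.02e-07) at 0 Gy 48 h. AP1M2, the epithelial subunit of the adaptor AP-1B for basolateral sorting, was at 94.5 and 102, 102 and 97.0, and 99.9 and 104 FPKM in degron (++). In degron (−) it was at 24.8 and 22.7, 17.2 and 16.8, and 28.7 and 27.8 FPKM, with the libraries of the 3 groups apart from each other. The log2 fold change at 0 Gy 48 h was 2.003 (adjusted p = 3.48e-09). TMEM125, a membrane protein of no role stated here, was at 8.66 and 8.64, 7.88 and 7.15, and 8.41 and 9.29 FPKM in degron (++) and at 0.574 and 0.162, 0.550 and 0.211, and 0.855 and 0.971 FPKM in degron (−). All degron (−) libraries of TMEM125 were under 1 FPKM, and its log2 fold change was 2.83 ± 0.15 (SE, adjusted p = 2.31e-07).

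Of the regulators, GRHL2 and ESRP1 had the largest differences on log2(FPKM + 1) at 0 Gy 48 h, and GRHL1 was the member with negative values in all 3 conditions. GRHL2, an activator of CDH1 and of claudin genes, was at 36.2 and 35.6, 36.0 and 34.9, and 36.8 and 38.03 FPKM in degron (++) and at 5.57 and 5.05, 4.07 and 3.66, and 6.79 and 8.17 FPKM in degron (−), a log2 fold change of 2.55 ± 0.080 (SE, adjusted p = 8.27e-09) at 0 Gy 48 h. GRHL1, its relative best known from epidermis, was at 1.37 and 1.16, 1.11 and 0.817, and 1.35 and 1.32 FPKM in degron (++) and at 1.67 and 1.76, 1.46 and 1.76, and 1.25 and 1.80 FPKM in degron (−). These low values overlapped between the populations, and the log2 fold change was -0.26 (adjusted p = 0.0759), -0.42 (adjusted p = 0.0118) and -0.11 (adjusted p = 0.449). The call at 4 Gy 30 h was lost without degron (++) replicate 2 (-0.31, adjusted p = 0.0868) or degron (−) replicate 2 (-0.33, adjusted p = 0.0769) of that group. At 0 Gy 48 h GRHL1 passed the threshold as lower without degron (−) replicate 1 (adjusted p = 0.0426) or replicate 2 (adjusted p = 0.0428) at 4 Gy 48 h, and under TPM rescaling (-0.42, adjusted p = 0.0173). At 4 Gy 48 h its direction turned without degron (−) replicate 2 (0.05) and under quantile normalisation (0.20, adjusted p = 0.184). The ratio of GRHL2 to GRHL1 was 26.5 to 42.7 in the degron (++) libraries and 2.08 to 5.41 in the degron (−) libraries.

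ESRP1, a regulator of epithelial splicing, was at 53.7 and 52.1, 51.7 and 52.7, and 49.9 and 50.2 FPKM in degron (++) and at 9.27 and 8.84, 5.86 and 5.65, and 9.02 and 11.1 FPKM in degron (−). Its log2 fold change at 0 Gy 48 h was 2.42 ± 0.075 (SE, adjusted p = 7.53e-09), whereas that of ESRP2 was 0.87 ± 0.057 (SE, adjusted p = 8.44e-07). ESRP1 was thus above ESRP2 in degron (++), by a ratio of 1.53 to 1.79, and below it in degron (−), at 0.456 to 0.689. OVOL1, a zinc finger factor known to repress ZEB1, was at 7.25 and 6.68, 7.54 and 6.58, and 7.36 and 8.01 FPKM in degron (++) and at 1.35 and 0.971, 0.813 and 0.739, and 2.07 and 2.59 FPKM in degron (−). The degron (−) libraries of OVOL1 were lowest at 30 h and highest at 4 Gy 48 h, and its log2 fold change at 0 Gy 48 h was 1.89 (adjusted p = 4.13e-07). OVOL2 had a log2 fold change of 1.71 (adjusted p = 1.74e-06).

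**Figure D2:**
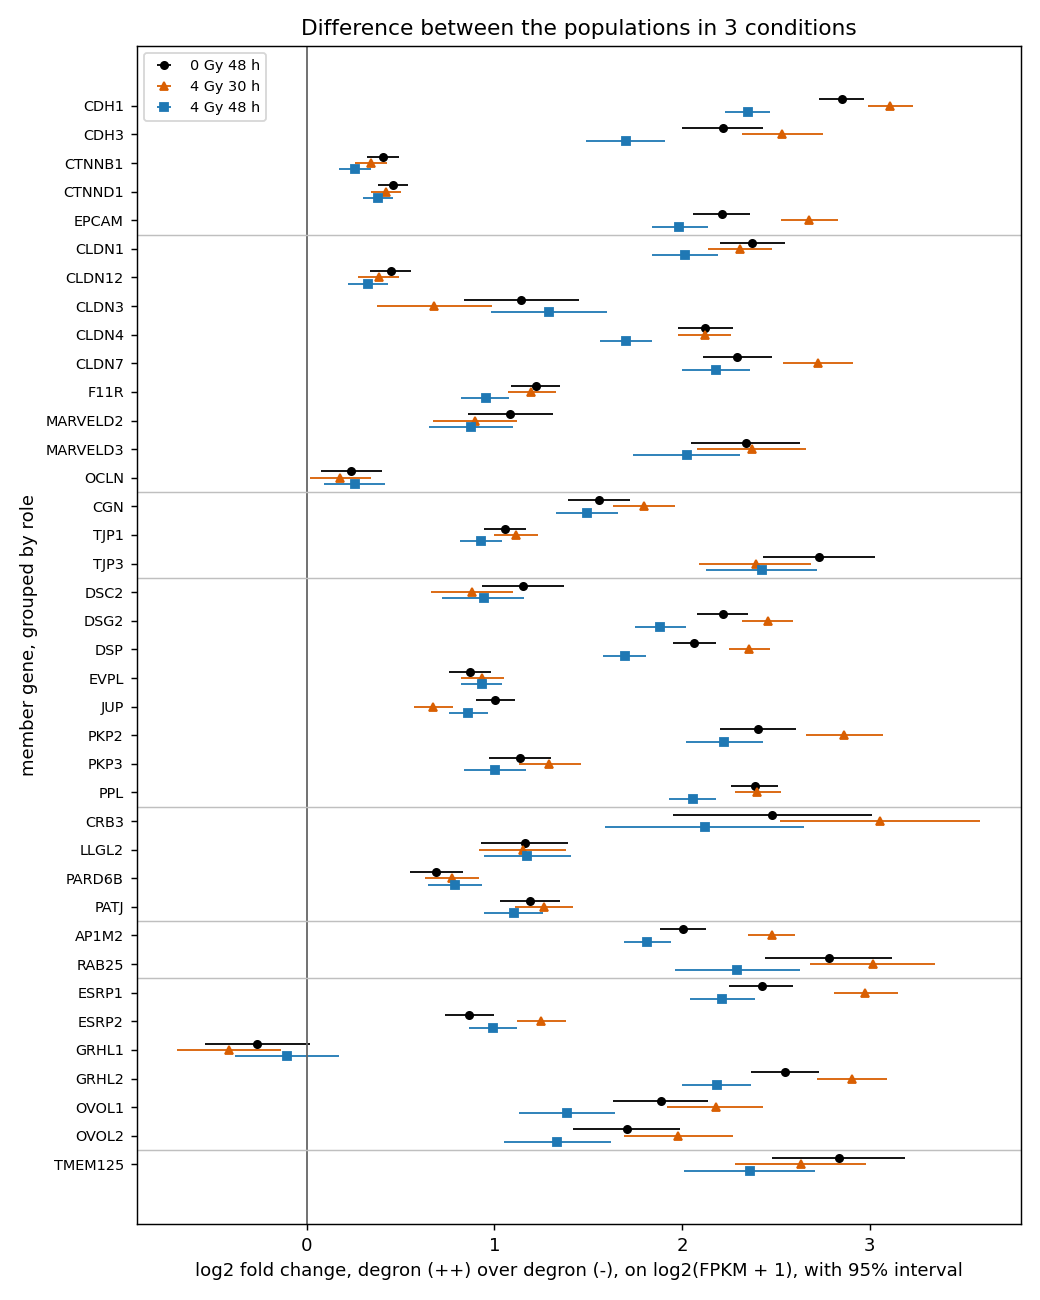
Log2 fold change of degron (++) over degron (−) on log2(FPKM + 1) for the 38 tested members (x axis, points with 95% intervals from limma), with black circles for 0 Gy 48 h, orange triangles for 4 Gy 30 h and blue squares for 4 Gy 48 h, and genes on the y axis grouped by role. All but GRHL1 lie to the right of 0, from 0.24 for OCLN to 2.85 for CDH1 at 0 Gy 48 h.

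FPKM are scaled to gene length, so the order of the members within a population can be read. In degron (++) at 0 Gy 48 h the highest were CLDN7 (195 FPKM), EPCAM (178), CLDN4 (174), CLDN1 (169), CTNND1 (107) and JUP (104). Both CLDN7 libraries lay above those of the other genes, the libraries of EPCAM, CLDN4 and CLDN1 overlapped, and CTNND1 lay above JUP in both libraries. In degron (−) the catenins came before the claudins, with CTNND1 at 77.8 FPKM, CTNNB1 at 61.7, JUP at 51.2, CLDN4 at 39.2, CLDN7 at 38.9, PKP3 at 38.7 and EPCAM at 37.5. The first 3 were apart in both libraries, while PKP3 overlapped with CLDN4, CLDN7 and EPCAM, and CLDN7 overlapped with CLDN4 and lay above EPCAM in both libraries.

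Expressed as a percentage of the degron (++) mean, the degron (−) means at 0 Gy 48 h formed a broad run. TMEM125 (4.25%) and TJP3 (4.66%) were lowest, 18 members lay between 12.5% for CDH1 and 22.5% for CLDN4, AP1M2 (24.2%) and CGN (28.4%) followed. A further 11 lay between 37.5% for PATJ and 55.2% for PARD6B, and CLDN12, CTNND1, CTNNB1 and OCLN lay at 71.8%, 72.5%, 75.1% and 82.0%. GRHL1 was at 136%. The 9p21 genes, whose levels stand against the known deletion, were at 12.05% (CDKN2B), 16.2% (CDKN2A) and 22.5% (MTAP). Of the 38 members, 18 fell between the lowest and the highest of these 3 genes, as did 3.49% of all genes tested. At 4 Gy 30 h the 9p21 genes were at 9.71% to 17.0% and held 12 members between them (3.14% of all genes), and at 4 Gy 48 h they were at 16.8% to 28.97% and held 15 (3.85% of all genes). The median of the members moved the same way, from 22.4% at 0 Gy 48 h to 19.9% at 4 Gy 30 h and 29.8% at 4 Gy 48 h. The part of this in the members' levels in degron (−) was not tested.

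**Figure D3:**
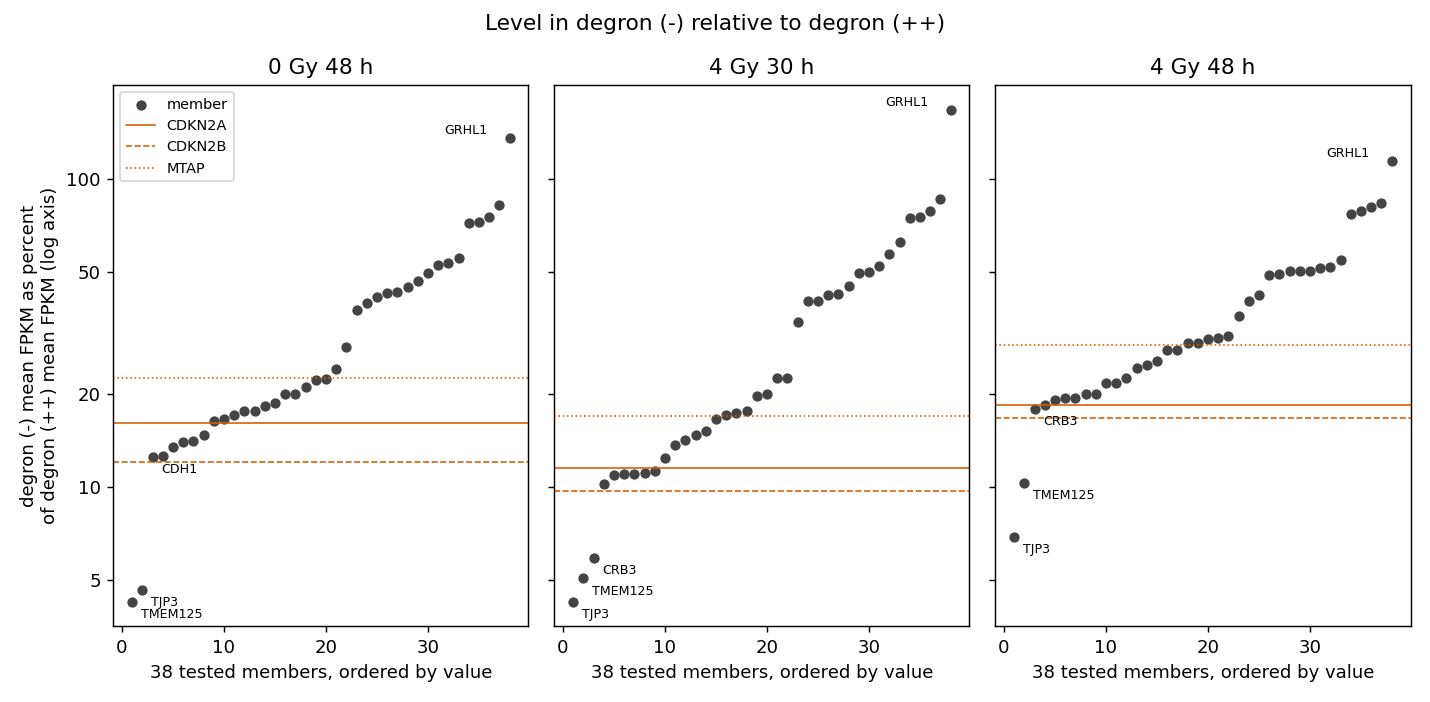
Mean FPKM in degron (−) as a percentage of mean FPKM in degron (++) (y axis, log scale) for the 38 tested members, ordered by value (x axis), in each condition, with orange lines for the 9p21 genes CDKN2A (solid), CDKN2B (dashed) and MTAP (dotted). At 0 Gy 48 h 18 members lie between the lowest and highest line, 2 below and 18 above.

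Radiation at 48 h was set beside no radiation within each population. In degron (++), 0 of 38 members passed the threshold (limma), where 1.82% of all genes did. At an unadjusted p under 0.05 there were 6 members, and 2282 of the 12946 genes tested. The log2 fold changes of the members lay between -0.21 for TJP3 and 0.23 for CGN. In degron (−), 13 members were higher at 4 Gy and 0 lower, where 3.85% of all genes were higher. They were CDH1, CLDN4, CLDN1, CDH3, OVOL1, EPCAM, JUP, GRHL2, F11R, DSP, PPL, DSG2 and AP1M2. CDH1 rose by a log2 fold change of 0.56 ± 0.052 (SE, adjusted p = 0.00155), CLDN4 by 0.52 (adjusted p = 0.00424), CLDN1 by 0.55 (adjusted p = 0.00643), CDH3 by 0.53 (adjusted p = 0.0185), OVOL1 by 0.63 (adjusted p = 0.0196) and EPCAM by 0.37 (adjusted p = 0.02). For each of these 6 both libraries at 4 Gy 48 h were above both at 0 Gy 48 h.

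The number of members called for dose in degron (−) rested on single libraries: it was 2 without degron (−) replicate 2 at 0 Gy 48 h and 2 without degron (−) replicate 2 at 4 Gy 48 h, and 0 when the fit held only the 4 libraries compared. CDH1 and CLDN4 were called whichever library was left out. The difference of the dose effects between the populations was called for 0 members and 0.0772% of all genes. At an unadjusted p under 0.05 there were 14 members, and 1758 of the 12946 genes tested. CDH1 was at -0.50 (adjusted p = 0.0581), so the dose effects were not shown to differ.

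Between the libraries labelled 30 h and 48 h at 4 Gy, members passed the threshold mainly in degron (−). In degron (++), JUP was the only member past the threshold between 48 h and 30 h, with a log2 fold change of 0.25 ± 0.046 (SE, adjusted p = 0.0459), where 0.657% of all genes were higher, and this call was lost whichever of the 12 libraries was left out (adjusted p = 0.0538 to 0.217). In degron (−), 22 of the 38 members were higher at 48 h than at 30 h and 0 lower, where 6.01% of all genes were higher. CDH1 rose by a log2 fold change of 0.79 ± 0.052 (SE, adjusted p = 0.000176), AP1M2 by 0.70 (adjusted p = 0.000364), DSP by 0.63 (adjusted p = 0.000374), GRHL2 by 0.80 (adjusted p = 0.000985), EPCAM by 0.64 (adjusted p = 0.00107) and CDH3 by 0.88 (adjusted p = 0.00116). By role, the 22 were 3 adherens members, 4 tight junction membrane members, TJP1 and CGN, 5 desmosome members, CRB3, both trafficking genes and the 5 regulators other than GRHL1. The count was 14 without degron (−) replicate 1 at 4 Gy 30 h, 14 without degron (−) replicate 2 at 4 Gy 48 h, and 0 when the fit held only the 4 libraries compared. CDH1, CDH3, EPCAM, CLDN4, CLDN7, CGN, DSG2, PKP2, DSP, PPL, AP1M2, ESRP1, GRHL2 and OVOL1 were called whichever library was left out.

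**Figure D4:**
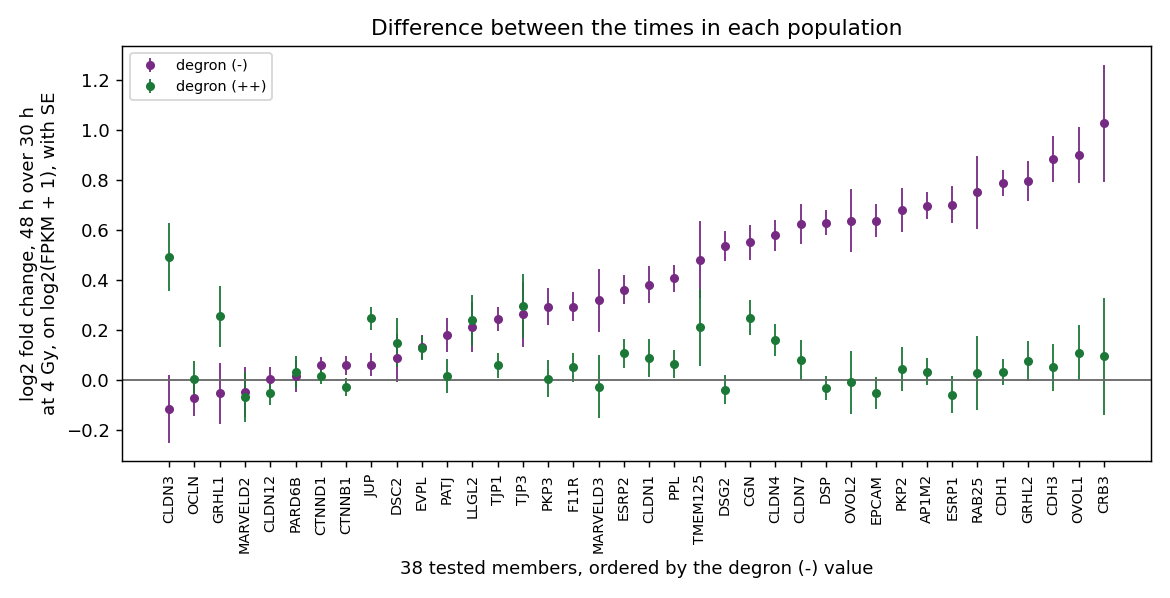
Log2 fold change of 48 h over 30 h at 4 Gy on log2(FPKM + 1), with SE bars (y axis), for the 38 tested members ordered by the degron (−) value (x axis), in purple for degron (−) and green for degron (++). The degron (−) values run from -0.12 for CLDN3 to 1.03 for CRB3, while the degron (++) values lie between -0.07 and 0.49.

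The difference between the populations in this change over time was itself past the threshold for 12 members. For all 12 the change in degron (++) was below the rise in degron (−), and 2.72% of all genes were called in that direction. They were CDH1, DSP, AP1M2, EPCAM, ESRP1, DSG2, GRHL2, CDH3, PKP2, OVOL1, CLDN7 and CLDN4, with CDH1 at -0.76 ± 0.074 (SE, adjusted p = 0.0039), DSP at -0.66 (adjusted p = 0.00453), AP1M2 at -0.67 (adjusted p = 0.00583), EPCAM at -0.69 (adjusted p = 0.0109), ESRP1 at -0.76 (adjusted p = 0.0121) and DSG2 at -0.57 (adjusted p = 0.0140). The count was 7 with only the 8 libraries compared, 4 and 3 without degron (++) replicates 1 and 2 at 4 Gy 30 h, 6 without either degron (++) library at 4 Gy 48 h, and 7 without degron (−) replicate 1 at 4 Gy 30 h or replicate 2 at 4 Gy 48 h. CDH1, DSP and AP1M2 were called whichever library was left out.

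In degron (−), 15 members had both libraries at 4 Gy 30 h lowest, both at 0 Gy 48 h between and both at 4 Gy 48 h highest, an order that 4.74% of all genes showed. They were CDH1, CDH3, EPCAM, CLDN7, TJP1, CGN, DSG2, PKP2, PKP3, DSP, PPL, AP1M2, GRHL2, OVOL1 and OVOL2. In degron (++), 2 members showed it, CLDN3 and JUP, which were named after their values were seen. The share of all genes with this order in degron (++) is not given here, so that count cannot be set against it. All 3 of the 9p21 genes had the same order in degron (−) and CDKN2B had it in degron (++). In degron (−), between 30 h and 48 h CDKN2A was higher by a log2 fold change of 0.73 (adjusted p = 0.00277), CDKN2B by 0.80 (adjusted p = 0.00315) and MTAP by 0.55 (adjusted p = 0.0028). For CDKN2A and MTAP the change also differed between the populations (-0.64, adjusted p = 0.0405, and -0.62, adjusted p = 0.018), while CDKN2B did not pass (-0.30, adjusted p = 0.338). Between 0 and 4 Gy at 48 h in degron (−), CDKN2A was at 0.23 (adjusted p = 0.201), CDKN2B at 0.45 (adjusted p = 0.0519) and MTAP at 0.27 (adjusted p = 0.0673). Of the other markers, KRT7 was higher at 48 h than at 30 h in degron (−) (0.86, adjusted p = 0.00116) with a difference between the populations of -0.96 (adjusted p = 0.0109), and the fibroblast marker LUM was higher in degron (−) (0.76, adjusted p = 0.00461) and in degron (++) (0.62, adjusted p = 0.0396). The part of these genes in the changes of the members was not tested.

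**Figure D5:**
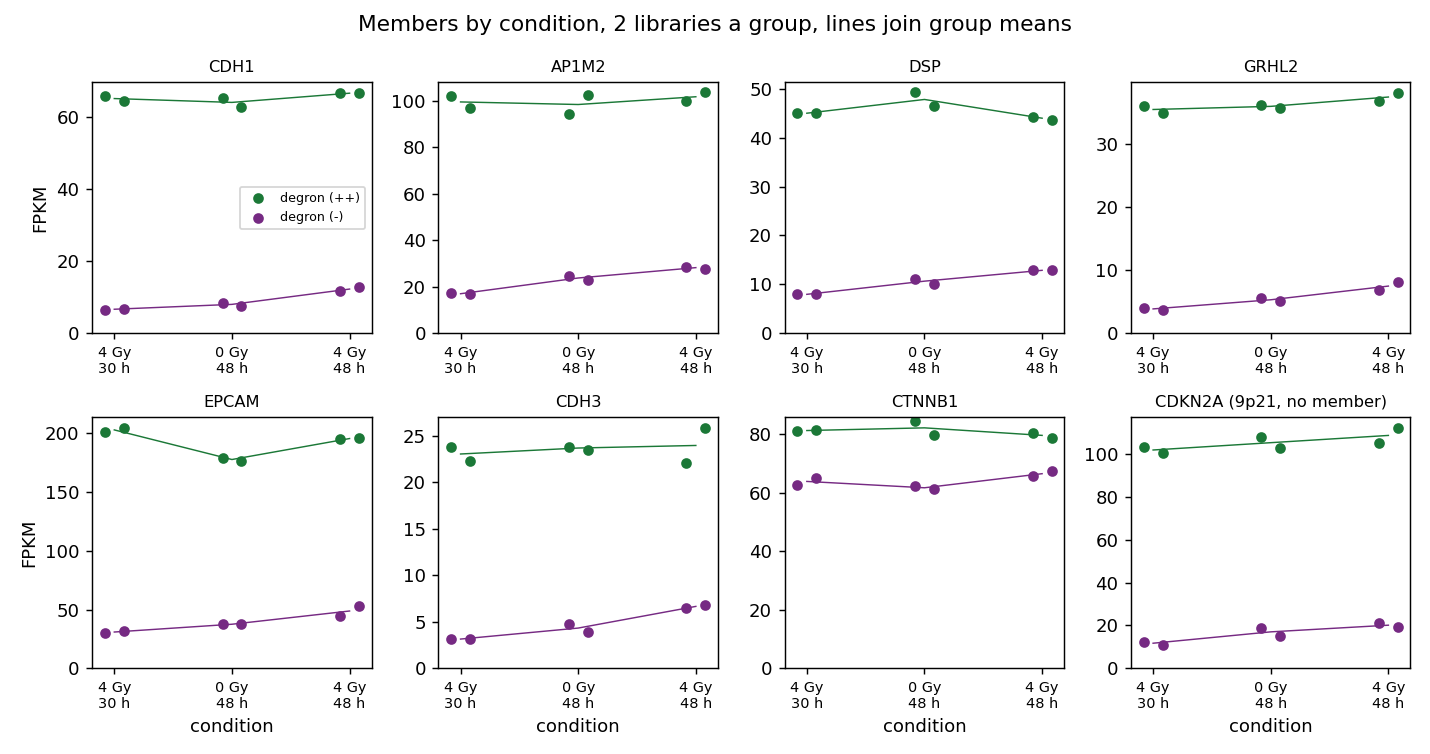
FPKM (y axis, from 0) of 7 members and of the 9p21 gene CDKN2A in the 2 libraries of each group, with green for degron (++), purple for degron (−), lines through the group means and the conditions in the order 4 Gy 30 h, 0 Gy 48 h and 4 Gy 48 h (x axis). CDH1 in degron (−) goes from 6.56 and 6.79 over 7.69 and 8.36 to 11.7 and 12.8 FPKM, while CTNNB1 stays between 61.2 and 67.3 FPKM.

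Junction and polarity genes outside the list were split in direction. Over all genes tested, 37.6% were higher in degron (++) at 0 Gy 48 h and 40.2% lower. Of 7 other adherens and nectin genes tested at 0 Gy 48 h, 1 was higher in degron (++), CTNNA1, the α-catenin gene (0.80, adjusted p = 5.11e-08), and 2 were lower, VCL, the vinculin gene (-1.75, adjusted p = 6.97e-10), and AFDN, the afadin gene (-0.45, adjusted p = 0.000189). Of 12 other tight junction genes, 6 were higher and 4 lower. LSR, of tricellular junctions (2.43, adjusted p = 9.47e-09), and CLDN9 (1.39, adjusted p = 1.71e-05) were the largest rises, and JAM3, a junctional adhesion molecule (-3.61, adjusted p = 1.83e-09), and CLDN11 (-1.18, adjusted p = 6.26e-05) the largest falls. Of 15 other polarity genes, 6 were higher and 5 lower, led by AMOT (2.25, adjusted p = 2.07e-08) and LLGL1 (1.20, adjusted p = 7.70e-08) and by STK11, the polarity kinase LKB1 (-4.55, adjusted p = 4.83e-10), and PARD6A (-0.97, adjusted p = 0.0001). STK11 was at 0.029 to 0.243 FPKM in degron (++) and at 23.1 to 26.1 FPKM in degron (−). STK11, JAM3 and CLDN11 passed the filter only through degron (−) libraries, and AMOT only through degron (++) libraries, so all of these had to differ. Of 2 other desmosome genes, PERP was lower (-2.05, adjusted p = 8.98e-10), at 36.1 to 40.0 FPKM against 158 to 184 FPKM.

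All 5 other epithelial transcription factors tested were higher in degron (++) at 0 Gy 48 h, where 37.6% of all genes were higher and 40.2% lower. The largest differences were those of ELF3 (3.40, adjusted p = 6.99e-09) and KLF5 (2.66, adjusted p = 2.35e-08). EHF passed the filter only through degron (++) libraries and so had to differ. GRHL3 of the same list was not tested and went the other way, at 0 to 0.068 FPKM in degron (++) and 0.477 to 0.693 FPKM in degron (−). Of the 7 repressors of epithelial genes and mesenchymal genes tested, 4 were lower, namely VIM (-7.28, adjusted p = 2.37e-11), ZEB1 (-3.11, adjusted p = 6.97e-10), SNAI1 (-1.44, adjusted p = 3.10e-06) and TWIST2 (-1.02, adjusted p = 1.16e-05), and 3 were higher, namely CDH2, the N-cadherin gene (2.56, adjusted p = 9.13e-09), FN1, the fibronectin gene (2.42, adjusted p = 3.79e-08), and SNAI2 (1.77, adjusted p = 4.65e-08). ZEB1 was at 0.030 to 0.067 FPKM in degron (++) and 7.84 to 9.84 FPKM in degron (−). ZEB1 and TWIST2 passed the filter only through degron (−) libraries and so had to differ. ZEB2 was not tested and lay higher in degron (++), at 0.208 to 0.382 FPKM against 0.028 to 0.147 FPKM in degron (−). CDH1 and CDH2 were thus both higher in degron (++), and their ratio was 1.43 to 1.56 in the degron (++) libraries and 1.23 to 1.39 in the degron (−) libraries. In degron (−), 2 of the 7 repressors and mesenchymal genes tested were higher at 4 Gy than at 0 Gy, CDH2 and SNAI2, where 3.85% of all genes were. In that population 3 were higher at 48 h than at 30 h, CDH2, SNAI2 and FN1, where 6.01% of all genes were. FN1, at 1.20 to 2.56 FPKM there, rose with time by 0.59 (adjusted p = 0.0098). In degron (++), 1 was lower at 48 h than at 30 h, VIM (-0.39, adjusted p = 0.0388), where 71 of the 12946 genes tested were. CDH2 rose by a log2 fold change of 0.47 (adjusted p = 0.0175) with dose and 0.76 (adjusted p = 0.0013) with time, and SNAI2 by 0.37 (adjusted p = 0.0293) and 0.63 (adjusted p = 0.00194).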

How the data were processed

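RNA of 12 libraries of PANC-1 cells, 2 in each of 6 groups, was sequenced by the authors after a stranded mRNA preparation. The authors deposited FPKM values per gene. The submitters' processing notes name TopHat2 2.1.1, Bowtie2 2.2.8, SAMtools 0.1.18, Cuffdiff 2.2.1 and the hg19 build. The gene annotation and the use of strand in counting are not given in the sources used here, so reads of overlapping or antisense genes cannot be told apart. FPKM hold no read counts, and the depth is unknown. Steps between low values gave relative depths of 0.877 to 1.19. An exact 0 is read only as listed at 0. The sum of FPKM per library was 707273 to 916877, and the median absolute log2 difference between replicates was 0.071 to 0.082.

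Values were tested as log2(FPKM + 1) with limma 3.58.1 in R 4.3.3, on the 12946 genes that reached an FPKM of 1 in 2 or more libraries, with 6 group means, a mean-dependent prior variance and Benjamini-Hochberg adjustment over all genes at 0.05. There were 9 contrasts: the populations in each condition, dose and time in each population, and the interactions of dose and of time with the population. A difference on this scale understates the change of low genes. The fit was tried on simulated data with independent noise and 200 changed genes. Far more genes were called between the populations, so this does not show how the tests behave on these data. Alternatives were a pseudocount of 0.1, no filter, a filter at FPKM 5, quantile normalisation, TPM rescaling, median of ratios, no variance trend, a replicate block, only the libraries compared, and leaving out each library in turn. The labels tie no replicate to its own culture or sort, so p-values measure only the spread between these samples, which may be technical.

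The members and the lists were chosen with earlier results of these data known. Values in every library were to be given for CDH1, EPCAM, TJP1, CTNNB1, the largest difference in each role, members lower in degron (++) or differing in call between conditions, and members called for dose, time or an interaction, the 6 with the smallest p where more passed. From each list of other genes the 2 largest differences in each direction were named. Promoters came from RefSeq on GRCh38.p14, with exons of GENCODE release 29 removed. No coordinates of the deposited hg19 values were used.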

Additional observations from a re-analysis of the deposited data

Results flagged for a closer look

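For 12 members the change from 30 h to 48 h at 4 Gy differed between the populations in a test of that difference. The test was limma on log2(FPKM + 1), with 8 libraries carrying the contrast. For each of the 12 members the change in degron (++) was below the rise in degron (−). Over all genes tested, 2.72% were called in that direction. Of the 12, only CDH1, DSP and AP1M2 kept their call whichever library was left out. In all 12 the values below are the degron (++) change minus the degron (−) change. The members grouped as adherens were CDH1 (-0.76, adjusted p = 0.0039), EPCAM (-0.69, adjusted p = 0.0109) and CDH3 (-0.83, adjusted p = 0.0176). The desmosome genes were DSP (-0.66, adjusted p = 0.00453), DSG2 (-0.57, adjusted p = 0.014) and PKP2 (-0.64, adjusted p = 0.0339), and the claudins were CLDN7 (-0.55, adjusted p = 0.0409) and CLDN4 (-0.42, adjusted p = 0.0436). The others were the sorting adaptor gene AP1M2 (-0.67, adjusted p = 0.00583), the splicing regulator ESRP1 (-0.76, adjusted p = 0.0121), and the transcription factors GRHL2 (-0.72, adjusted p = 0.017) and OVOL1 (-0.79, adjusted p = 0.0356). Of the 9p21 genes, CDKN2A (-0.64, adjusted p = 0.0405) and MTAP (-0.62, adjusted p = 0.018) were called in the same direction and CDKN2B (-0.30, adjusted p = 0.338) was not, and KRT7 was called too (-0.96, adjusted p = 0.0109). So were 2 of the 7 repressors and mesenchymal genes tested, 2 of 5 other epithelial factors and 1 of 12 other tight junction genes. Of 7 other adherens and nectin, 15 other polarity and 2 other desmosome genes tested, 0 were called. The part of the 9p21 genes, KRT7 and these lists in the result was not tested. The dose effects of the members were not shown to differ between the populations.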

How the results depend on the processing

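Of 162 single-member values recomputed, 56 lost their call, gained one or turned at least once. The reversals were OCLN at 4 Gy 30 h under TPM rescaling (-0.062), CTNNB1 at 4 Gy 48 h under TPM rescaling (-0.0056), and GRHL1 at 4 Gy 48 h under quantile normalisation (0.20) and without degron (−) 4 Gy 48 h replicate 2, where leaving out 1 library gave -0.263 to 0.0512. Members lower at 0 Gy 48 h became 1 under TPM rescaling and with only the libraries compared, and at 4 Gy 30 h became 2 with no filter and 0 with a filter at FPKM 5 or quantile normalisation. The replicate numbers share only a number (correlations of deviations -0.0381 to 0.122). With the replicate block the genes called for dose in degron (++) fell from 236 to 125, for time in degron (++) from 156 to 88 with 0 members, and for the dose interaction from 10 to 2. Elsewhere the count was, for dose in degron (++), 121 with no filter, 149 with quantile normalisation, 57 with TPM, 128 without the trend and 17 with only the libraries compared. For dose in degron (−), 612 genes became 341 (TPM) and 8 (only the libraries compared), and 13 members became 4 (no filter) and 0 (only the libraries compared). For time in degron (++), 156 became 99 (no filter), 40 (TPM), 78 (no trend) and 12 (only the libraries compared), each with 0 members. For time in degron (−), 930 became 611 (TPM) and 7 (only the libraries compared), with 0 members in the latter. For the dose interaction, 10 became 17 (pseudocount 0.1), 76 (no filter), 22 (filter at FPKM 5), 35 (quantile), 20 (TPM) and 6 (only the libraries compared), with 1 member lower under the filter at FPKM 5 and quantile normalisation. For the time interaction, 418 became 278 (no filter), 225 (TPM) and 128 (only the libraries compared), and 12 members became 7 with no filter and 7 with only the libraries compared. When 1 library at a time was omitted, there were 36 to 37 members higher per condition, 0 to 1 lower at 0 Gy 48 h and at 4 Gy 30 h, 1 to 154 genes for dose in degron (++), 115 to 496 genes and 2 to 13 members for dose in degron (−), 15 to 122 genes and 0 to 0 members for time in degron (++), 281 to 940 genes and 14 to 21 members for time in degron (−), 0 to 18 genes for the dose interaction, and 67 to 393 genes and 3 to 12 members for the time interaction. The cause was not tested. A group left with 1 library is assumed to vary like the others. With 2 libraries a group and no counts, members under 1 FPKM could not be compared.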

Other observations

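In degron (−), 3 of the 5 other epithelial factors tested were higher at 48 h than at 30 h at 4 Gy, where 6.01% of all genes were. ELF3 rose by a log2 fold change of 1.35 (adjusted p = 0.00035), KLF5 by 0.76 (adjusted p = 0.00311) and KLF4 by 0.72 (adjusted p = 0.0044). DSG2 relative to JUP stood at 0.426 to 0.558 in the degron (++) libraries and 0.140 to 0.216 in the degron (−) libraries, and TJP1 relative to TJP3 at 4.77 to 7.82 and 34.6 to 149.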
